A study of Mus musculus with 3 samples.

Results

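Chromatin at 10 genes of bone marrow niche retention and adhesion was examined in hematopoietic stem cells (HSCs), out of 21646 protein-coding genes in the annotation. They are *Cxcr4*, *Tek*, *Itga4*, *Itgb1*, *Itga6*, *Cd44*, *Selplg*, *Cdh2*, *Cd9* and *Jam2*, and they were taken as a list of surface receptors and adhesion molecules. The study profiled HSCs with DOGMA-seq, a droplet method that reads open chromatin by transposase insertion (ATAC), polyadenylated RNA and oligonucleotide-tagged antibodies (ADTs) from the same cells. There was 1 ATAC, 1 RNA and 1 ADT library, all from a single preparation of wild-type bone marrow from female C57BL/6 mice (C57BL/6J in the methods) aged 8 weeks, enriched for c-Kit with magnetic beads and sorted as LSK CD150+ CD48- CD34-. The number of mice behind the preparation is not stated by the labels or methods read here, and no condition was compared. Values below are from the ATAC library, RNA per gene was not analysed here, and the ADT counts were not used here because no tag or cell name goes with them.

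HSCs stay in the marrow because stromal cells make ligands that their surface receptors bind. The chemokine receptor CXCR4 follows CXCL12, the receptor tyrosine kinase TIE2 (encoded by *Tek*) binds angiopoietins, and integrins, which are pairs of an alpha and a beta chain, grip matrix and VCAM1. CD44 binds hyaluronan and PSGL-1 (*Selplg*) binds selectins, while N-cadherin (*Cdh2*), the tetraspanin CD9 and the junctional molecule JAM-B (*Jam2*) act at contacts between cells.

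For each gene, the window was the gene body with 30 kb on either side, cut into 500-bp bins. A cell was counted in a region when 1 of its ATAC fragments had an end there, which marks a transposase cut in accessible DNA. Of 3757 barcodes called as cells, 3108 (82.7%) had more than 3000 fragments in peaks and were analysed, with a median of 11442 fragments and a range of 3970 to 194134. All 3757 called cells had both RNA UMIs and ATAC fragments. A promoter reached 500 bp to either side of the start of the principal transcript and was called open when at least 5% of cells had an end in it. A bin was called open at 2% of cells, and neighboring open bins were joined into a site. Brackets after shares of cells hold exact 95% binomial intervals. Those after a ratio of observed to expected cells hold a 95% Poisson interval of the observed count, divided by the expected one. Both cover counting error only. With 1 library there is no replicate and no test.

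For 6 of the genes, a region outside the promoter is printed first, as an example of the sequence that was open away from the start. Each is the 200-bp stretch with the densest fragment ends around the strongest 500-bp bin among the open sites of that gene that are not at a transcript start of another protein-coding gene, read from the RefSeq GRCm38 genome on the strand of the gene, 5′ to 3′. Capitals mark matches to 9 short transcription factor strings searched on both strands, of which 5 occur in these 6 stretches (the string AGATAA of the GATA factors, TGTGGT of the RUNX factors, AGGAAG of the ETS factors, GGGCGG of the KLF/SP factors and TTCNNNGAA of the STAT factors). No matches overlapped in the stretches shown.
Cxcr4 distal, chr1:128615191-128615390, minus strand: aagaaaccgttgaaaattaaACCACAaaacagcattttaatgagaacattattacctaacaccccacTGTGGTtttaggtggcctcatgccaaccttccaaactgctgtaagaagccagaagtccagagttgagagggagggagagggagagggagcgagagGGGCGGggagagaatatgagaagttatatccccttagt
Itga4 internal, chr2:79270322-79270521, plus strand: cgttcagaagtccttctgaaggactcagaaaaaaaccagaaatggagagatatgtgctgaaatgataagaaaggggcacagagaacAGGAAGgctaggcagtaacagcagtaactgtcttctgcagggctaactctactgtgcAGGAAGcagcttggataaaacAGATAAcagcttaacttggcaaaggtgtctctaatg
Itgb1 internal, chr8:128709350-128709549, plus strand: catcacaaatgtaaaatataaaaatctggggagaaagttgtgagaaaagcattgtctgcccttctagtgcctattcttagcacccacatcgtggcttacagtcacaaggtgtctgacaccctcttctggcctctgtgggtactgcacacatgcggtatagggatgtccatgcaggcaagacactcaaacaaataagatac
Itga6 internal, chr2:71814154-71814353, plus strand: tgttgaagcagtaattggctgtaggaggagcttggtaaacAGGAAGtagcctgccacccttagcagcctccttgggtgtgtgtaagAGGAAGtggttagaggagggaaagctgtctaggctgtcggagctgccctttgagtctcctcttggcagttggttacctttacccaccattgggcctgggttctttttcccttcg
Selplg distal, chr5:113854586-113854785, minus strand: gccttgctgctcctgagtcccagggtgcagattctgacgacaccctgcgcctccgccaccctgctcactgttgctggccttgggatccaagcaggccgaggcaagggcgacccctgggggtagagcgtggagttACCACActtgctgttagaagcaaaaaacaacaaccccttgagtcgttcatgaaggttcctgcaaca
Jam2 internal, chr16:84814627-84814826, plus strand: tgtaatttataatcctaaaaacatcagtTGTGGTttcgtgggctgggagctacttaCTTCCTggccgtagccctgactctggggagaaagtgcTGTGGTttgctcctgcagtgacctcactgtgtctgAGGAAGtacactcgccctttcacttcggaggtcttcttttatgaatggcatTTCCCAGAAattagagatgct
*Tek* and *Cdh2* had no open site away from their promoter.

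The *Cxcr4* and *Tek* promoters had the highest and the lowest share of cells, and the 200 bp before the first annotated base of each gene are shown for that contrast. Capitals again mark string matches, here GGGCGG (read as CCGCCC on this strand) before *Cxcr4* and TGACAG, a MEIS string (read as CTGTCA), before *Tek*.
Cxcr4 upstream, chr1:128592294-128592493, minus strand: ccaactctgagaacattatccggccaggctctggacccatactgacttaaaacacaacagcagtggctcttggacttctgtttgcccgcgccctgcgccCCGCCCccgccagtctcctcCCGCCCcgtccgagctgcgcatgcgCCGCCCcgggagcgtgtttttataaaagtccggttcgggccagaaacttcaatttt
Tek upstream, chr4:94739089-94739288, plus strand: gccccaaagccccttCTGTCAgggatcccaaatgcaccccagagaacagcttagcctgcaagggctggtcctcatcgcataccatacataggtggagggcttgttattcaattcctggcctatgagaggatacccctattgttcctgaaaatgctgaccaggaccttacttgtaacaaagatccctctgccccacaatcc
The first holds 3 KLF/SP strings and the second holds 1 MEIS string. A match describes letters only and is not a bound site.

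Open promoters were found in 9 of the 10 genes, against 54.6% of all protein-coding genes (11814 of 21646). The count was 6 at a limit of 10% of cells, against 44% of all genes, and 3 when each cell was thinned to 3000 fragments, against 33.5%, so the excess over all genes depends on depth and on the limit. The median promoter share was 13.3% of cells in the 10 genes and 6.95% in all protein-coding genes, whose upper quartile began at 24.2%. *Cxcr4* and *Itga6* lay above that value, *Itgb1* just below it, and *Tek* was the only one below the 5% limit. Between these ends, *Itga4* and *Cd9* formed a middle pair, and *Jam2*, *Selplg*, *Cd44* and *Cdh2* a lower group. Intervals of neighbors overlapped for *Itga6* with *Itgb1*, *Itga4* with *Cd9*, *Jam2* with *Selplg*, *Selplg* with *Cd44*, and *Cd44* with *Cdh2*, so those pairs are not ordered by these counts. *Cxcr4* and *Tek* were set apart from their neighbors by intervals that did not overlap. The 5% limit fell between *Cdh2* at 7.05% and *Tek* at 3.86%.

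**Figure D1:**
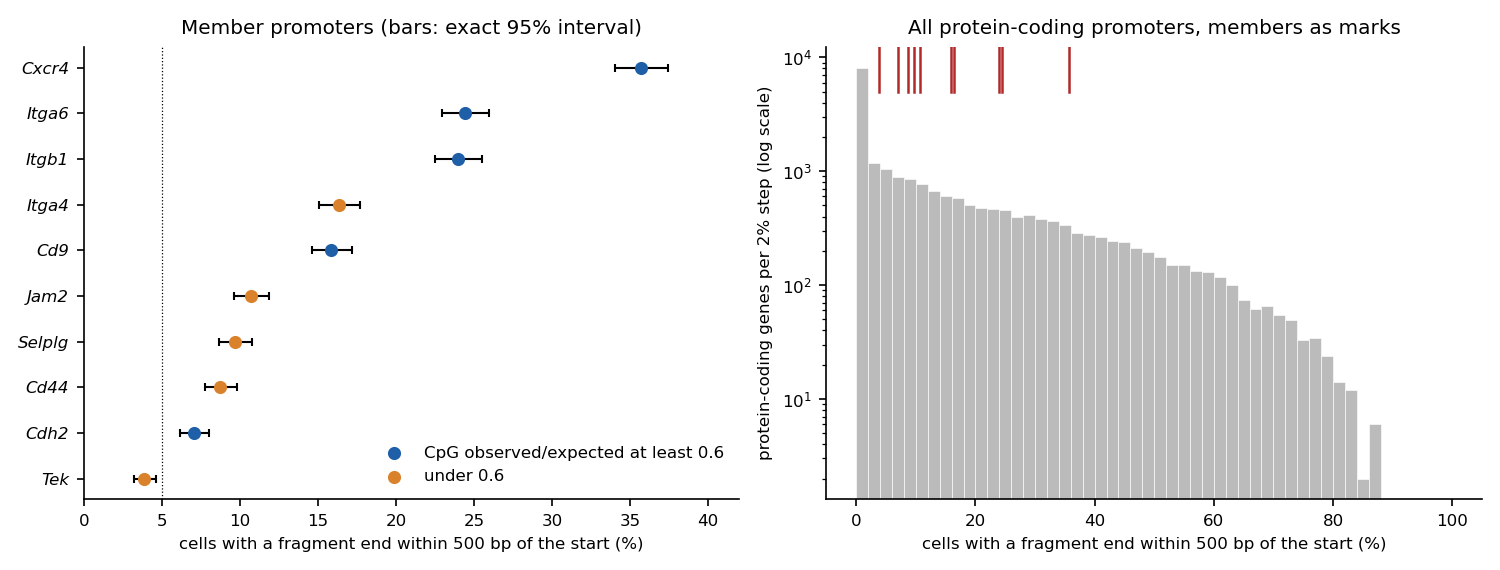
Left, the share of 3108 cells with a fragment end within 500 bp of the principal start for each of the 10 genes, with exact 95% binomial intervals, colored by the CpG content of the promoter and with the 5% limit dotted. Right, the same share for all 21646 protein-coding genes in steps of 2% on a log scale, with the 10 genes as red marks. Values ran from 3.86% at *Tek* to 35.7% at *Cxcr4*.

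Across the 10 windows, 52 open sites were found, 11 at promoters, 21 inside gene bodies and 20 distal to them. They took 109 of 2778 bins (3.92%), against 3.11% of all bins in the windows of protein-coding genes. Of the 20 distal sites, 5 lay within 1000 bp of an annotated transcript start of another protein-coding gene, in 1 case (*Coro1c*) that of a noncoding transcript. Sites outside promoters held 60.3% of all fragment ends in open sites, 20.4% internal and 39.9% distal. These 5 sites accounted for 17.99% of site ends, nearly all at *Pdk1* and at *Atp5j* and *Gabpa*, so that 42.4% lay away from the starts of these genes as well. Taken gene by gene, the median non-promoter share was 55.0%, and that of the 17621 protein-coding genes with any open site was 69.9%. The strongest bin of the window lay at the promoter in 5 of the 10 genes and in 43.2% of all genes. The site with the fewest cells was a distal one at *Itga6* at 2.06%, and bins that missed the 2% limit include one 13.0 kb before *Cdh2* at 1.83% and one beyond *Tek* at 1.51%.

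**Figure D2:**
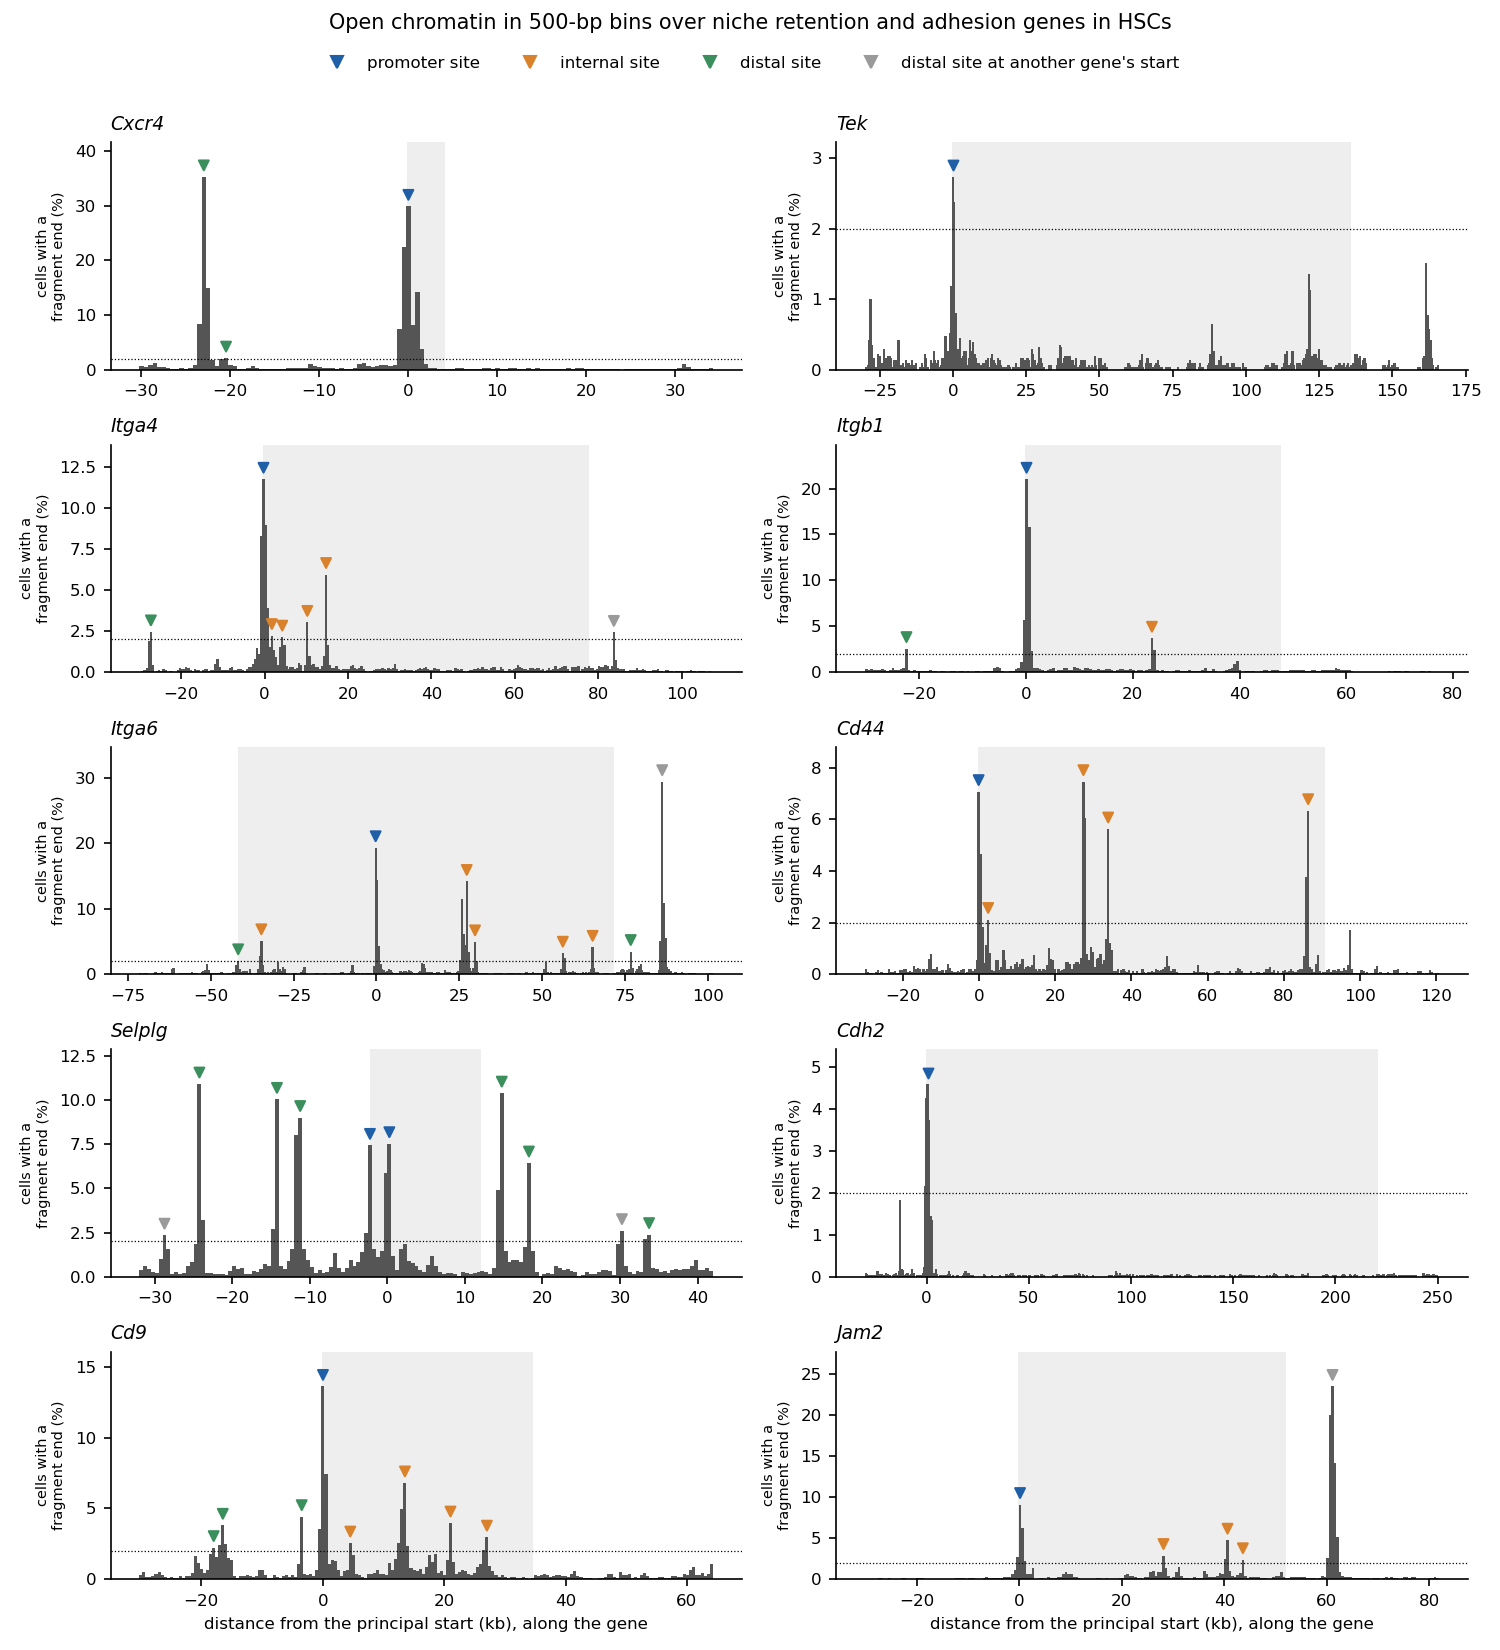
Share of cells (%) with a fragment end in each 500-bp bin, by distance in kb from the principal start along the gene, with 1 panel per gene and its own vertical scale. Gray shading is the gene body, the dotted line is the 2% limit, and triangles mark open sites by class. *Cxcr4* has a distal peak taller than its promoter (35.3% against 29.9%), *Selplg* is flanked by distal peaks, and *Tek* and *Cdh2* have open bins at the promoter only.

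*Cxcr4* (ENSMUSG00000045382.6, chr1:128588199-128592293, minus strand) encodes the receptor for CXCL12. Its promoter had a fragment end in 1110 of 3108 cells (35.7% [34.0 to 37.4]), higher than 85.4% of protein-coding promoters. The gene is short, at 4.095 kb, and had no internal site apart from the promoter, which spread over 3000 bp. The main feature beside it was a distal site from 128614501 to 128616000, about 23.0 kb upstream. It had ends in 1231 cells (39.6%), against 1442 (46.4%) in the whole promoter site. In the strongest bin of the distal site 35.3% of cells [33.6 to 37.0] had an end, against 29.9% [28.3 to 31.6] in the strongest promoter bin. These intervals did not overlap. The distal site held 3619 fragment ends and the promoter site 4541. Another distal bin at −20.5 kb just passed the limit, at 2.09%. No other protein-coding gene lies in this window. Promoter and distal site were both cut in 628 cells, where 594 would be expected from cells of the same depth, a ratio of 1.06 [0.98 to 1.14]. Fragments under 150 bp, which come mostly from DNA between nucleosomes, made up 42.1% at the promoter site and 56.8% at the distal site. Within 500 bp of the start they made up 39.0%. The printed distal stretch holds 2 RUNX strings and 1 KLF/SP string.

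*Tek* (ENSMUSG00000006386.15, chr4:94739289-94874976, plus strand) encodes TIE2, the receptor for angiopoietins. Only 120 cells (3.86% [3.21 to 4.60]) had an end at its promoter, which ranked above 42.7% of all promoters and above 75.9% of those that, like it, are poor in CpG. A single site passed the limit, at the promoter itself, whose strongest bin reached 2.73%. In 135.688 kb of gene body no internal bin passed. The next strongest bin lay 161 kb from the start, beyond the 3′ end of the gene, at 1.51% [1.11 to 2.01]. Only 10.6% of the fragment ends in the window fell in the open site, the lowest of the 10 genes, and 91 of 391 bins had no end in any cell. Short fragments made up 26.4% at this promoter, higher than at only 5.35% of the promoters with at least 100 fragments.

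Integrin alpha 4 pairs with beta 1 to form VLA-4, the receptor for VCAM1 and fibronectin. The *Itga4* promoter (ENSMUSG00000027009.18, gene at chr2:79255426-79333123, plus strand) had an end in 509 cells (16.4% [15.1 to 17.7]). That value was higher than 93.8% of CpG-poor promoters, the highest such rank among the 5 genes of this kind here. All 4 internal sites of *Itga4* lay in intron 2, between 1.75 and 14.75 kb from the start. The farthest was the strongest, at 5.95% of cells [5.15 to 6.84], and the printed stretch from it holds 2 ETS strings and 1 GATA string. The other three internal sites had ends in 2.12% to 3.02% of cells. Of the 2 distal sites, 1 lay at −27.25 kb and the other at the start of *Cerkl*. Overall 36.7% of the site ends of *Itga4* lay outside its promoter.

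Integrin beta 1 is the shared beta chain of many integrins, among them those with alpha 4 and alpha 6. The *Itgb1* promoter (ENSMUSG00000025809.15, gene at chr8:128685654-128733200, plus strand) had an end in 746 cells (24.0% [22.5 to 25.5]). This was near the middle of CpG-rich promoters, higher than 50.7% of them. Promoter ends made up most of the open chromatin at this gene, and 15.03% of site ends lay elsewhere. An internal site in intron 3 had its strongest bin at 3.67% [3.03 to 4.39], and a distal bin at −22.4 kb reached 2.54%. A later annotated start, 38.7 kb on, had an end in 20 cells (0.644%).

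Integrin alpha 6 forms laminin receptors with beta 1 or beta 4. The *Itga6* promoter (ENSMUSG00000027111.15, gene at chr2:71745616-71858416, plus strand) had an end in 759 cells (24.4% [22.9 to 25.97]), with an interval that overlapped that of its partner *Itgb1*. Unlike *Itgb1*, it had 5 internal sites and 3 distal ones. The largest internal site spanned 3000 bp of intron 1 about 27.3 kb from the start, and 836 cells (26.9%) had an end in it, against 810 (26.1%) in the promoter site. Its strongest bin, at 14.2% [13.0 to 15.5], was lower than that of the promoter at 19.3% [17.96 to 20.8], so the ends in the intron were spread over more bins. The printed stretch from this bin holds 2 ETS strings. Promoter and intron were cut in the same cell 244 times against 240 expected, a ratio of 1.02 [0.89 to 1.15]. Further internal sites lay at exon 2, at exon 20 and in intron 24, with ends in 3.99% to 5.47% of cells. Another, at −34.7 kb and 6.34%, counts as internal only because a noncoding transcript of the gene starts upstream of the coding ones. The window had the most fragments of the 10, 6846 in 81.5% of cells, but 35.9% of its site ends lay at the start of the neighboring gene *Pdk1*, a kinase of pyruvate metabolism, where the strongest bin reached 29.4%.

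*Cd44* (ENSMUSG00000005087.17, chr2:102811141-102901665, minus strand) encodes the hyaluronan receptor CD44. Its promoter had an end in 272 cells (8.75% [7.78 to 9.80]), higher than 86.4% of CpG-poor promoters. It was the only gene of the 10 whose strongest bin lay in an internal site. This bin, in intron 1 at 27.4 kb, had an end in 7.46% of cells [6.56 to 8.45], against 7.08% [6.20 to 8.04] in the promoter bin, and the intervals overlapped. Intron 18, near the 3′ end, held a site with ends in 7.27% of cells (6.34% in its strongest bin). Intron 1 held another at 33.9 kb and 5.63%. Together the 4 internal sites took 72.7% of the site ends of *Cd44*, and no distal site was found. Promoter and intron 1 site were cut in 30 cells together where 29.4 were expected (ratio 1.02 [0.69 to 1.46]).

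*Selplg* (ENSMUSG00000048163.13, chr5:113818536-113832644, minus strand) encodes PSGL-1, a ligand of selectins. The gene had the most sites, 10, of which 8 were distal and none was internal. The gene has 3 annotated start regions, of which 2 were open. The principal start had an end in 301 cells (9.68% [8.67 to 10.8]) and the start of Selplg-203, 2.14 kb upstream, in 249 cells (8.01% [7.08 to 9.02]). The starts of 3 short transcripts about 11 kb downstream had an end in only 7 or 8 cells each (0.225% to 0.257%). The strongest distal bins exceeded both promoter bins, which stood at 7.53% [6.63 to 8.51] and 7.43%. They lay at −24.2 kb inside *Coro1c* with 10.9% [9.83 to 12.1], at 14.75 kb past the start, beyond the 3′ end of the gene, with 10.4% [9.34 to 11.5], at −14.2 kb, also inside *Coro1c*, with 10.0%, and at −11.2 kb with 9.01%. For the first 3 of these the intervals lay above that of the principal promoter bin. Of these, the site past the 3′ end lies within 1000 bp of the start of the processed pseudogene *Gm19931*, and that at −11.2 kb of the start of the antisense gene *Gm17122*. *Coro1c* encodes an actin-binding coronin. The starts of its coding transcripts lie outside the window, and a site near the start of a noncoding one had an end in 2.35% of cells. The start of *Tmem119* reached 2.61%. Distal sites took 75.4% of the site ends of *Selplg*, and no bin of its window was empty.

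*Cdh2* (ENSMUSG00000024304.14, chr18:16588877-16809246, minus strand) encodes N-cadherin, whose part in holding HSCs to osteoblasts has been debated. Its promoter had an end in 219 cells (7.05% [6.17 to 8.00]). Although this passed the 5% limit, it was higher than only 13.7% of CpG-rich promoters, the lowest such rank of the 10 genes. The promoter site was the only one in a window of 280 kb, and 288 of its 560 bins had no end in any cell. A later annotated start, Cdh2-202, had an end in 0 of 3108 cells, which allows a share of up to 0.0965% by a limit of 3 counts, or 0.119% by the exact interval. The density of 2.84 fragments per kb was the lowest of the 10. Short fragments made up 30.8% at the promoter, higher than at only 9.40% of promoters with at least 100 fragments.

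*Cd9* (ENSMUSG00000030342.8, chr6:125460266-125494791, minus strand) encodes a tetraspanin that organizes integrins in the membrane. Its promoter had an end in 493 cells (15.9% [14.6 to 17.2]), and 64.9% of site ends lay elsewhere. Of 4 internal sites, 3 lay in intron 1 and 1 in intron 2. The largest covered 2000 bp about 13.5 kb from the start, with ends in 373 cells (12.0%) and a strongest bin at 6.79% [5.93 to 7.73]. It lies within 1000 bp of an annotated start of the antisense gene *Gm28809*. Distal sites stood at −3.46 kb with 4.41%, near −16.5 kb with 6.31% (3.797% in its strongest bin) and near −17.96 kb with 2.22%. The window of *Cd9* holds no other protein-coding gene and had no empty bin.

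*Jam2* (ENSMUSG00000053062.16, chr16:84774123-84825928, plus strand) encodes JAM-B, the partner of JAM-C. Its promoter had an end in 333 cells (10.7% [9.65 to 11.9]). The CpG observed/expected ratio of 0.577 was just under the 0.6 that parts the classes used here. Most site ends of the window, 68.4%, lay at the shared start region of *Atp5j* and *Gabpa*, where the strongest bin reached 23.5% of cells [21.98 to 24.99]. *Atp5j* encodes a subunit of ATP synthase and *Gabpa* an ETS factor. Of the gene's own sites outside the promoter, the strongest lay in intron 5 at 40.6 kb. It had ends in 5.69% of cells, and in 4.73% [4.01 to 5.54] in its strongest bin. Others lay in intron 2 and intron 7 at 2.86% and 2.35%, the last near the start of the rRNA gene *Gm25908*. The printed stretch from intron 5 holds 2 RUNX, 2 ETS and 1 STAT string. Short fragments made up 27.0% at the promoter, close to *Tek*.

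**Figure D3:**
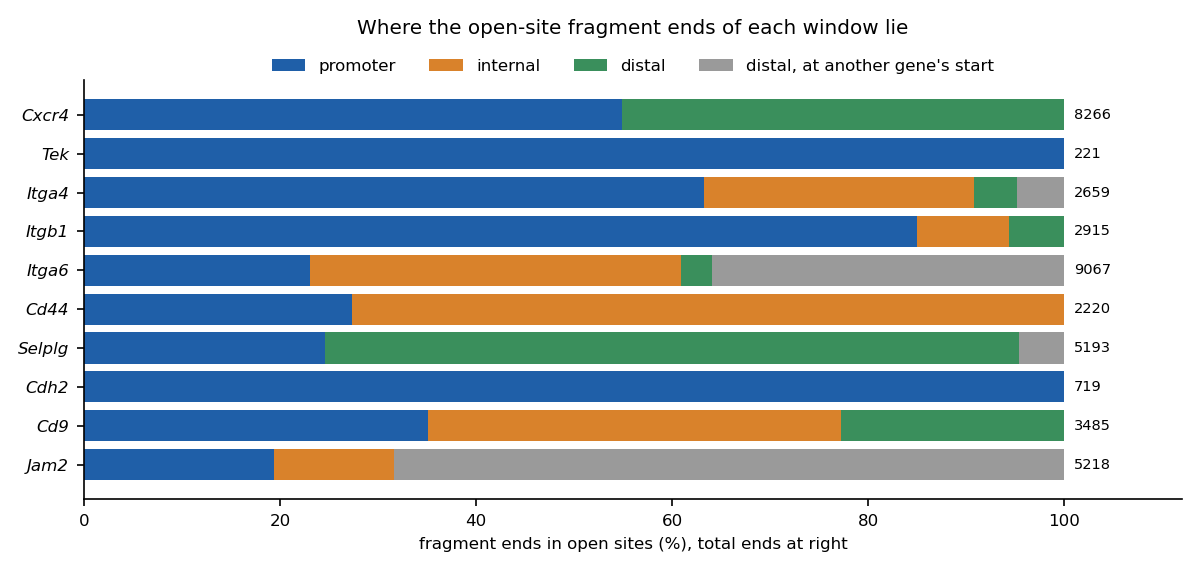
Share (%) of fragment ends in open sites of each window that lay at the promoter, in internal sites, in distal sites and in distal sites at the start of another gene, with the total number of ends at the right. *Tek* and *Cdh2* had promoter ends only, *Cd44* had internal ends beside its promoter, *Selplg* and *Cxcr4* distal ends, and most ends at *Jam2* lay at the start of its neighbors.

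The promoters were also ranked among others of like CpG content. Over all protein-coding genes, promoters with a CpG observed/expected ratio of at least 0.6 were open in 91.3% of 10353 cases, with a median share of 23.5%, and those under 0.6 in 20.9% of 11293, with a median of 0.354%. The 10 genes divided evenly. *Cxcr4* ranked at 70.7% within the CpG-rich class, *Itga6* at 51.4%, *Itgb1* at 50.7%, *Cd9* at 34.4% and *Cdh2* at 13.7%. In the CpG-poor class, ranks were 93.8% for *Itga4*, 89.0% for *Jam2*, 87.6% for *Selplg*, 86.4% for *Cd44* and 75.9% for *Tek*. All 5 CpG-poor promoters thus ranked above 75% of their class, *Tek* only just, while 2 of the 5 CpG-rich ones stood below the median of theirs. The classes of *Jam2* (0.577) and *Cxcr4* (0.625) turn on small margins.

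Fragments were unevenly spread over the windows as well. *Cxcr4* had 77.0 fragments per kb and *Selplg* 55.8, ranking above 83.5% and 73.8% of gene windows. *Itga6*, *Cd9* and *Jam2* lay between 32.3 and 39.6 per kb, *Itgb1*, *Itga4* and *Cd44* between 16.6 and 20.8, and *Tek* and *Cdh2* at 5.32 and 2.84. The share of window ends inside open sites ran from 10.6% at *Tek* to 83.3% at *Cxcr4*. Short fragments at promoters had a median of 51.9% over the 12956 promoters with at least 100 fragments, and 9 of the 10 genes fell below it, with *Itga6* at 55.0% the exception.

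The motif strings were counted in 200-bp stretches around the densest ends, 1 for each of the 52 sites, and beside them in all 94248 open bins of protein-coding windows. The latter take every open bin, also weaker bins beside a peak, while each site gave only the stretch at its strongest bin. The shares are therefore not of like units, and a difference between them can come from this. The ETS string AGGAAG was in 23 sites (44.2%) and in 30.2% of all stretches, and the RUNX string TGTGGT in 14 sites (26.9%) and 15.1% of stretches. The GATA factor string AGATAA was in 5 sites (9.62%, all of them outside promoters) and 6.32% of stretches, and the KLF/SP string GGGCGG in 15 (28.8%) and 26.4%. The other strings gave 10 sites for the E-box CAGCTG (19.2%, against 12.7% of stretches), 5 for MEIS TGACAG (9.62% and 12.1%), 3 for HIF ACGTGC (5.77% and 4.58%), 3 for STAT TTCNNNGAA (5.77% and 4.59%) and 1 for AP-1 TGANTCA (1.92% and 5.84%). ETS strings lay in 21 of the 41 sites outside promoters and RUNX strings in 9. Sites of 1 gene share a window and a base composition, so these shares describe the 52 sites and were not tested.

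Within single cells, accessibility at the 10 promoters was sparse. A cell had a fragment end at a median of 1 of the 10 promoters, at none in 617 cells (19.9%) and at most at 8, in 1 cell. For the 8 genes with an open site of their own beside the promoter, the one with the most cells was taken, and the number of cells with both cut was compared with the number expected from cells grouped by depth. The ratio of observed to expected ran from 1.00 at *Itgb1* to 1.24 at *Itga4*, and each of the 8 intervals included 1. At *Itga4* it was 56 cells against 45.2 (1.24 [0.93 to 1.61]), at *Selplg* 51 against 41.8 (1.22 [0.91 to 1.60]) and at *Jam2* 32 against 26.2 (1.22 [0.84 to 1.72]). These intervals do not allow for the fixed numbers of cells cut at each site, so they can be wider than the true spread. That they include 1 does not show that the sites were cut independently, and a dependence was not tested.

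**Figure D4:**
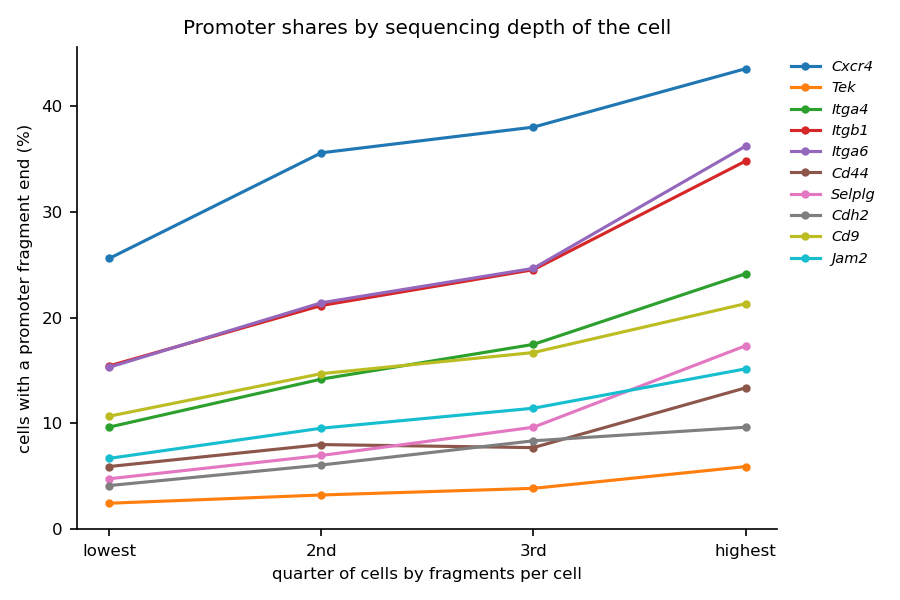
Share of cells (%) with a fragment end at each promoter, in 4 groups of equal size from the cells with the fewest to those with the most fragments. *Cxcr4* rises from 25.6% to 43.6% and *Tek* from 2.45% to 5.91%, and these genes stay first and last in each group.

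Shares rose with the depth of the cell. With cells split into 4 groups of equal size by their fragments, from the lowest group to the highest, *Cxcr4* went from 25.6% to 43.6%, *Itga6* from 15.3% to 36.2%, *Selplg* from 4.76% to 17.4% and *Tek* from 2.45% to 5.91%. When each cell was thinned to 3000 fragments, *Cxcr4* was cut in 11.5% of cells, *Itga6* in 7.24%, *Itgb1* in 6.95%, *Itga4* in 4.89%, *Cd9* in 4.57%, *Jam2* in 3.02%, *Selplg* in 2.70%, *Cd44* in 2.54%, *Cdh2* in 1.77% and *Tek* in 1.03%. This is the same order as without thinning. A cell with no end at a promoter is therefore not shown to have it closed. Among fragments of analysed cells and of barcodes not called as cells together, the latter made up 4.17% (*Cdh2*) to 6.61% (*Itgb1*) at the promoters. Over the genome they made up 8.67%.

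Relatives and partners of the 10 genes were read in 9 lists with 117 genes, of which 67 had an open promoter, with a median share of 6.31%. Both values were close to those of all protein-coding genes, 54.6% open with a median of 6.95%, and the lists below are to be read beside these. At a limit of 10% of cells 42 were open, against 44% of all genes, and after thinning 24, against 33.5%. Among 23 other integrin chains 11 were open (median 4.89%). *Itga9* at 25.6% and *Itga2b*, the platelet integrin chain, at 24.8% stood at the level of *Itga6* and *Itgb1*, and *Itgad* was lowest at 0.161%. *Itgb4*, the other partner of alpha 6, had 9.97%, and *Itgb7*, the other partner of alpha 4, 3.44%. Genes that switch integrins on were open in 10 of 14 cases (median 14.8%), led by the small GTPase *Rap1b* at 53.6% and the adaptor *Pxn* at 45.6%, while the talin gene *Tln2* had 0.0965%.

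Of 18 other chemokine and lysolipid receptors 7 were open, with a median of 1.91%, far below *Cxcr4*. The sphingosine-1-phosphate receptors *S1pr2* and *S1pr1* were highest, at 21.8% and 15.9%, *Ackr3*, the other receptor for CXCL12, had 9.36%, and *Cxcr6* 0.0965%. Cadherins were the list with the fewest open promoters, 1 of 9, with a median of 2.45%. *Cdh1*, which encodes E-cadherin, had 6.82%, close to *Cdh2*, *Cdh15* had 4.47% and *Cdh17* 0.322%. Tetraspanins were open in 9 of 12 cases (median 14.1%), with *Tspan14* at 61.4%, *Cd82* at 35.1% and *Cd63* at 3.41% (17.0% at another annotated start), and *Cd9* lay near that median. Of 12 adhesion genes of the immunoglobulin type 9 were open (median 8.70%), with *Cd47* at 52.3%, *F11r*, a paralog of *Jam2*, at 19.8%, *Jam3*, which encodes the binding partner of JAM-B, at 17.9% and *Cd226* at 0.547%.

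Selectins and the enzymes that build their ligands on PSGL-1 were open in 8 of 12 cases (median 6.52%). The tyrosine sulfotransferase *Tpst2* had 78.5% and *B4galt1* 59.7%, whereas *Tpst1* had 0.0644% at its principal start but 29.0% at another annotated start. Niche ligands, which stromal or endothelial cells are known to make, were open in 8 of 12 cases (median 6.34%). *Col4a1* had 16.9%, *Fn1* 12.1%, *Angpt1* 5.73%, *Cxcl12* 5.12% and *Vcam1* 0.901%. Among 5 receptor partners 4 were open (median 10.1%), with *Kit* at 27.1%, *Flt3* at 20.3%, *Tie1*, which associates with TIE2, at 5.37% and *Ptprb* at 3.31%.

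**Figure D5:**
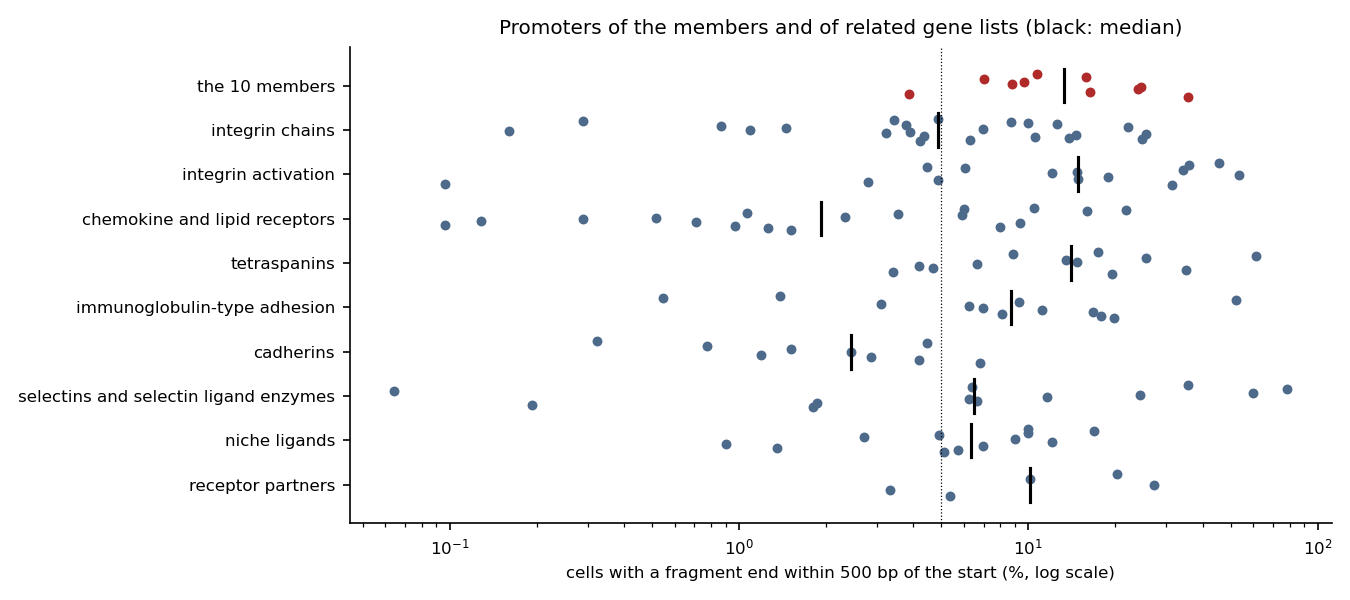
Share of cells (%, log scale) with a fragment end at the promoter for the 10 genes (red) and for the genes of 9 related lists (blue), with 1 point per gene, the list median as a black bar and the 5% limit dotted. The median was 13.3% for the 10 genes, 14.8% for integrin activation and 1.91% for chemokine and lipid receptors.

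The label of the cells was read against marker promoters. The counts are to be read beside the 54.6% of all protein-coding genes with an open promoter. HSC markers were open in 6 of 8 cases, from *Hlf* at 39.99% to *Ly6a* at 1.19%. *Ly6a* and *Slamf1* (3.31%) did not pass. Megakaryocyte genes were open in 3 of 4 cases, from *Itga2b* at 24.8% to *Ppbp* at 1.03%. No promoter passed among 4 T cell genes (at most 0.515%, *Cd3d*, and at least 0.161%, *Cd3e*), 4 B cell genes (*Pax5* 2.16%, *Ms4a1* 0.225%) or 5 granulocyte genes (*Mpo* 1.25%, *Ly6g* 0.0322%). Stromal and osteoblast genes passed in 3 of 8 cases (*Alpl* 10.2%, *Bglap* 0.386%) and endothelial genes in 1 of 6 (*Kdr* 9.52%, *Stab2* 0.0644%). An open promoter is not expression, and the values for *Pax5*, *Cd3d* and the stromal gene *Pdgfra* (2.09%) were higher at other annotated starts, at 23.8%, 5.98% and 30.8%. The part of other cell types in the shares of the 10 genes was not tested.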

How the data were processed

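Sorted HSCs of 1 preparation were profiled with DOGMA-seq. The authors mapped reads with Cell Ranger ARC 2.0.2 to mm10 (GRCm38), called cells, and deposited counts of reads, UMIs and fragments per barcode and the position of each deduplicated fragment with its count of read pairs. The ADT counts were not used, since no tag or column names go with them. No deposited value was normalized. The sources read do not say if fragment ends were shifted for the transposase offset.

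Fragments of called cells with over 3000 fragments in peaks were counted by their ends, which gives each cell once per region whatever its number of read pairs. No fragment ended beyond a GRCm38 chromosome. Genes, transcripts and exons came from the GENCODE vM21 annotation, and sequences from RefSeq GRCm38. The principal start was that of 1 coding transcript per gene, so genes with several starts can be read low. Promoter sites lay within 1000 bp of an annotated coding start. Doublets were kept. Expected joint cuts were summed over 20 depth groups. Analysis used Python 3.11.15, numpy 2.4.6, scipy 1.17.1, pandas 2.3.3, pyarrow 21.0.0 and matplotlib 3.10.9, and counting was tested on simulated data. The 3108 cells held 37137164 fragments, so that a share near 5% is known to about 1 percentage point.

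The genes, lists, limits and strings were chosen with earlier results of these data known. Named in the text are the 10 genes, the 2 highest and the lowest gene of each related list, direct binding partners, the highest and lowest gene of each marker list reported, and other genes that start in an open site. *Tpst1*, *Cd63*, *Pax5*, *Cd3d* and *Pdgfra* at other starts were added after their values were seen, as was *Slamf1*. Alternatives varied the promoter width, thresholds, starts, bin grid, flanks, cells, depth and way of counting. Some sequences and marker values are not reported here.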

Additional observations from a re-analysis of the deposited data

Results flagged for a closer look

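Signal was also present in barcodes outside the cells analysed, which is why these values are listed. Among the 649 called cells with too few fragments in peaks, whose median was 1660 fragments, 49 had an end at the *Cxcr4* promoter (7.55% [5.64 to 9.86]). The other promoters ranged from 1.08% at *Jam2* to 5.08% at *Itgb1* in these cells. Barcodes not called as cells had 373 fragments at the 10 promoters together. That was 5.62% of the fragments there of these barcodes and the analysed cells together, against 8.67% over the genome.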

How the results depend on the processing

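*Cxcr4* had the highest and *Tek* the lowest promoter share in all 8 settings in which shares were recomputed, while neighbors in the middle of the order changed places. The number of the 10 genes with an open promoter, 9 as reported, was between 6 and 10 under other limits, widths, starts and cells, but 3 when each cell was thinned to 3000 fragments. Related genes with an open promoter went from 67 of 117 to 42 at a limit of 10%, where 44% of all protein-coding genes passed. They went to 24 after thinning, where 33.5% of all genes passed. Both counts lay below those shares. They rose to 90 at a limit of 2% and to 80 with promoters of 1000 bp on either side. Open sites went from 52 to 25 at a limit of 5% per bin and to 21 after thinning, and to 76 at a limit of 1% and 70 with flanks of 50 kb. These follow from the limits, the regions counted and the number of fragments.

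The share of site ends outside promoters, 60.3% as reported, was 47.2% with flanks of 10 kb and 71.8% with 50 kb, since flanks decide how many distal sites count. It was 62.2% at a limit of 1% per bin, 56.3% at 5%, 59.6% in all called cells, 56.0% after thinning, 59.5% without the 10% of cells with the most fragments, where doublets would lie, and 61.2% when overlapping fragments were counted. The limits of the study on the share of fragments in peaks, nucleosome signal and TSS enrichment removed 0 of the 3108 cells, and its limits on mitochondrial RNA and on reads in blacklisted regions were not run here. No paired analysis was possible because the labels carry no replicate numbers and there is 1 library, and for the same reason no library could be left out. Depth limits what single cells show, since most cells had no end at a given promoter.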
